A study of Homo sapiens with 40 samples.

Results

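The genes described here are 8 genes known as outputs of the coactivator YAP or as genes that respond to mechanical stretch: CCN1, CCN2, ANKRD1, AMOTL2, ANXA1, EMP1, FLNC and TAGLN. They were taken by name from the 57939 genes of the total RNA table and matched by gene identifier in the polyA table, which lists CCN1 and CCN2 under their older symbols CYR61 and CTGF. Levels are in TPM as listed, a length-scaled share of a library. In total RNA the values of ANKRD1 and CCN2, which have 1 annotated transcript each, ran in steps that fit the gene span, introns included. In polyA RNA they fitted exon length. Levels and ranks of different genes in total RNA may thus depend on gene span, and levels of the 2 tables are not on the same scale. The length itself does not affect differences of 1 gene between total RNA libraries. Whether reads in introns were counted is not stated. If they were, differences between extracts may hold unspliced RNA beside mRNA, which was not tested. All 8 reached 1 TPM in at least 2 total RNA libraries and were among 24735 genes tested there, and 6 of the 8 were among 16667 tested in polyA RNA. The genes were proposed with results of these data known, and which measured values they were chosen by is not recorded. Their differences between days are therefore given as a description without a test, and the tests below are of positions among extracts. Extract values may also have entered into the choice. The p-values of those tests thus describe these genes and are no independent evidence.

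H1, a long-established line of human embryonic stem cells that the labels give as wild type, was kept on matrigel in mTeSR1 on day 0. For mesoderm differentiation the cells were moved to IMDM with 10% fetal bovine serum, glutamine, ascorbic acid, monothioglycerol and BMP4 at 10 ng/mL, and after the first day bFGF at 2.5 ng/mL was added until day 5. Day and medium, serum included, changed together and cannot be told apart. On days 0, 3 and 5 total RNA was sequenced from membrane extract (ME), soluble nuclear extract (SNE), chromatin-bound nuclear extract freed with micrococcal nuclease (CBNE), pellet extract (PE, which the protocol also calls cytoskeletal), cytoplasmic extract (CE) and from samples named INPUT, read here as unfractionated cells. Each of these 18 groups had 2 libraries, 36 in all, and day 0 polyA RNA of nucleus and cytoplasm had 2 libraries each. Whether replicates came from separate cultures is not stated. The p-values therefore measure the spread between these libraries, which may be technical. The extracts came from successive buffers, but whether same-numbered extracts came from the same cells is not stated. H1 is a single line.

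YAP and its relative TAZ (gene WWTR1) are coactivators held in the cytoplasm when the Hippo kinases STK3, STK4, LATS1 and LATS2 phosphorylate them. When the kinases are quiet, as in spread cells on a stiff support, they enter the nucleus and act through the DNA-binding TEAD factors. A parallel route runs from actin polymerisation through the MRTF coactivators to the factor SRF, which drives contractile genes. Serum and lysophospholipids are known to feed both routes, and CCN1, CCN2 and ANKRD1 are the usual reporter genes of YAP.

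The promoters are shown because they hold the TEAD core motif to different extents in genes that moved together over the days. Promoter sequences of RefSeq (GRCh38.p14) were matched for 6 of the 8 genes, all but CCN1 and TAGLN, with 2 starts for AMOTL2. In the 250 bases before the RefSeq start, the TEAD core GGAATG, on either strand (CATTCC on the other), stood 3 times for CCN2, 2 times for ANKRD1, 1 time for FLNC, 1 time at 1 of the 2 AMOTL2 starts, and not for ANXA1 or EMP1. Of 35116 human promoter windows of this length 11.9% held it at least 1 time, 0.940% at least 2 times and 0.0826% at least 3 times. Capitals mark the motif, sequences run 5′ to 3′ along the gene's strand, and bases inside the gene's own annotated exons are left off for CCN2 (chr6:131951374-131951622, minus strand) and FLNC (chr7:128830156-128830376, plus strand). The ANKRD1 window has 189 of its 250 bases inside exons of the gene as GENCODE 29 places it, where the gene starts farther upstream. Its motif nearer the RefSeq start lies in those exonic bases and is not printed, and 30 bases around the farther one are given (chr10:90921290-90921319, minus strand). The AMOTL2 window with the motif has 147 exonic bases, the motif among them, and is not printed.
CCN2: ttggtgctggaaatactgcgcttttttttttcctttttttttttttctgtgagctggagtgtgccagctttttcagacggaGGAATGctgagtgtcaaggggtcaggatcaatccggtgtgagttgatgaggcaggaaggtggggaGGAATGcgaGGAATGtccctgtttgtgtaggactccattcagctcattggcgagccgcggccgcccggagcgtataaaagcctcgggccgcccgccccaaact
ANKRD1: atcaccaccaaaGGAATGgccctctcacat
FLNC: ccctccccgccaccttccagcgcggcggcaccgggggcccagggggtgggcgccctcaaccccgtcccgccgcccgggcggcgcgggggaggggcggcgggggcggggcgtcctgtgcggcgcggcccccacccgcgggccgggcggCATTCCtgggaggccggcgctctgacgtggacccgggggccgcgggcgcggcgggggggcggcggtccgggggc
The pattern TGANTCA, a loose form of the AP-1 motif, was in the ANKRD1 window and 2 times in that of EMP1. Of all windows 6.57% held it at least 1 time. The CArG box bound by SRF, found in 1.16% of all windows, was in none of these windows, which do not cover CCN1 or TAGLN. A match is a run of letters and not a known site, and no match says only that these letters are absent from the window.

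In the GENCODE 29 annotation (GRCh38) CCN1 (ENSG00000142871) lies at chr1:85580761-85583962 on the plus strand and CCN2 (ENSG00000118523) at chr6:131948176-131951373 on the minus strand. ANKRD1 (ENSG00000148677) lies at chr10:90912096-90921276 on the minus strand, AMOTL2 (ENSG00000114019) at chr3:134355874-134375479 on the minus strand and ANXA1 (ENSG00000135046) at chr9:73151757-73170393 on the plus strand. EMP1 (ENSG00000134531) lies at chr12:13196716-13219939, FLNC (ENSG00000128591) at chr7:128830377-128859274 and TAGLN (ENSG00000149591) at chr11:117199321-117204782, all on the plus strand. The sources used here do not state whether counting used strand. Reads of FLNC and its antisense FLNC-AS1 (at most 11.1 TPM in any library), of CCN2 and AL133346.1 (at most 67.1 TPM), of AMOTL2 and the pseudogene RPL39P5 (at most 63.1 TPM) and of TAGLN and PCSK7 (at most 50.5 TPM) cannot be told apart where they overlap.

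Depth and cell markers frame the values. In the 24 INPUT, CE, ME and SNE libraries a read on a length of 1 kb was worth 0.707 to 1.81 TPM. It was worth 13.8 to 61.8 TPM in CBNE, 3.37 to 30.8 TPM in PE and 0.231 to 0.356 TPM in polyA RNA. In total RNA the length that fits is the gene span. In INPUT, 5 pluripotency markers summed to between 2368 and 2370 TPM on day 0, 1500.4 and 1535 on day 3 and 1109 and 1136 on day 5, with SOX2 listed at 0 in every library. The 5 primitive streak and early mesoderm markers summed to between 5.86 and 7.77, 83.8 and 93.9, and 1296 and 1382 TPM on these days, and 6 amnion and trophoblast markers to between 10.8 and 11.3, 113 and 121, and 718 and 719.6 TPM. The 7 smooth muscle and fibroblast markers summed to between 119 and 127 TPM on day 0, 263 and 272 on day 3 and 127 and 137 on day 5, with MYH11 at most 0.189 TPM. COL1A1 made up most of that sum, at 190 to 201 TPM on day 3, and CNN1 and PDGFRB were also highest on day 3, COL3A1 on day 5, and DES and MYH11 on day 0. Of the 4 endothelial markers, KDR was highest on day 0 at 92.4 to 97.5 TPM, TEK on day 3 at 17.4 to 18.3 TPM, and CDH5 and PECAM1 on day 5 at no more than 1.59 and 0.122 TPM. Markers of neuroectoderm (3 genes, highest on day 0 at 60.4 to 61.4 TPM) and endoderm (3 genes, highest on day 5 at 54.3 to 59.9 TPM) made up the rest. OTX2 was most of the neuroectoderm sum on day 0, at 57.7 to 59.7 TPM, with SOX1 at 1.47 to 2.69 TPM. PAX6 had at most 0.251 TPM on day 0 and was highest on day 3, at no more than 0.530 TPM. Of the endoderm markers, FOXA2 had at most 0.470 TPM on day 5. The part of these cell types in the members' levels was not tested, and fewer cells of a type and less RNA per cell cannot be told apart in bulk RNA.

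In unfractionated cells all 8 genes stood far above day 0 by day 3, and 7 of the 8 were highest on day 3. Together they made up 0.118% and 0.121% of nuclear-encoded protein-coding TPM in the day 0 INPUT libraries, 0.997% and 0.993% on day 3 and 0.602% and 0.604% on day 5. In each of the 8 genes both day 3 libraries lay above both day 0 libraries, which held for 30.6% of all genes tested, with 35.8% the other way. On day 5 both libraries lay above both of day 0 in all 8 (28.8% of all genes, with 41.7% the other way). Against day 3, both day 5 libraries lay higher in AMOTL2 (23.4% of all genes) and lower in 6 of the 8 (36.4%), and ANKRD1 overlapped. Since these changes may have led to the choice of the genes, nothing is read from these counts.

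The secreted matrix proteins CCN1 and CCN2, which bind integrins, were already abundant on day 0. CCN1 had 355 and 368 TPM on day 0, 1874 and 1806 TPM on day 3, and 1295 and 1282 TPM on day 5. The 3 days did not overlap. CCN2 had 289 and 292 TPM on day 0, 1860 and 1845 TPM on day 3, and 792 and 752 TPM on day 5. The pair was level with each other on day 3, where they ranked 38 and 36 among 19773 nuclear-encoded protein-coding genes. They parted by day 5, when CCN1 stayed at 0.700 of its day 3 mean and CCN2 at 0.417 of its own.

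ANKRD1, a nuclear cofactor of striated muscle that is induced by stretch, was close to absent on day 0. It had 0.0910 and 0 TPM on day 0, 355 and 414 TPM on day 3, and 338 and 370 TPM on day 5. The day 0 values lay at the floor. Taken on exon length 0.0910 TPM was 0.216 of a read, but the total RNA values of this gene ran in whole multiples of that step. The 0.0910 TPM may thus stand for a single read. Days 3 and 5 overlapped. AMOTL2, an angiomotin that holds YAP at junctions and is itself a YAP target, was the exception to the day 3 peak. It had 43.0 and 44.9 TPM on day 0, 229 and 238 TPM on day 3, and 247 and 266 TPM on day 5, with both day 5 libraries above both day 3 libraries.

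Of the membrane genes, ANXA1, a calcium-dependent phospholipid-binding protein, had 1.12 and 1.35 TPM on day 0, 261 and 269 TPM on day 3, and 215 and 213 TPM on day 5. EMP1, a tetraspan membrane protein, had 0.756 and 1.12 TPM on day 0, 108 and 125 TPM on day 3, and 76.7 and 77.8 TPM on day 5. Both were near 1 TPM on day 0, ranked 341 and 857 among the protein-coding genes on day 3, and kept most of that level on day 5.

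The actin-binding genes differed in where they began. FLNC, the muscle filamin that cross-links actin, had 9.40 and 10.2 TPM on day 0, 852 and 880 TPM on day 3, and 405 and 412 TPM on day 5. Its day 3 mean was 88.5 times the day 0 mean. TAGLN, also called SM22-alpha and an SRF target, had 69.3 and 76.1 TPM on day 0, 902 and 879 TPM on day 3, and 645 and 583 TPM on day 5. Its day 3 mean was 12.3 times the day 0 mean. As listed, the 2 genes had nearly the same level on day 3 and TAGLN the higher one on days 0 and 5. Gene span may enter into that comparison. Between day 3 and day 5, CCN2 and FLNC dropped furthest, with mean log2(TPM + 1) on day 5 minus day 3 of -1.26 and -1.08, beside 2.32% of all genes called lower in that comparison.

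**Figure D1:**
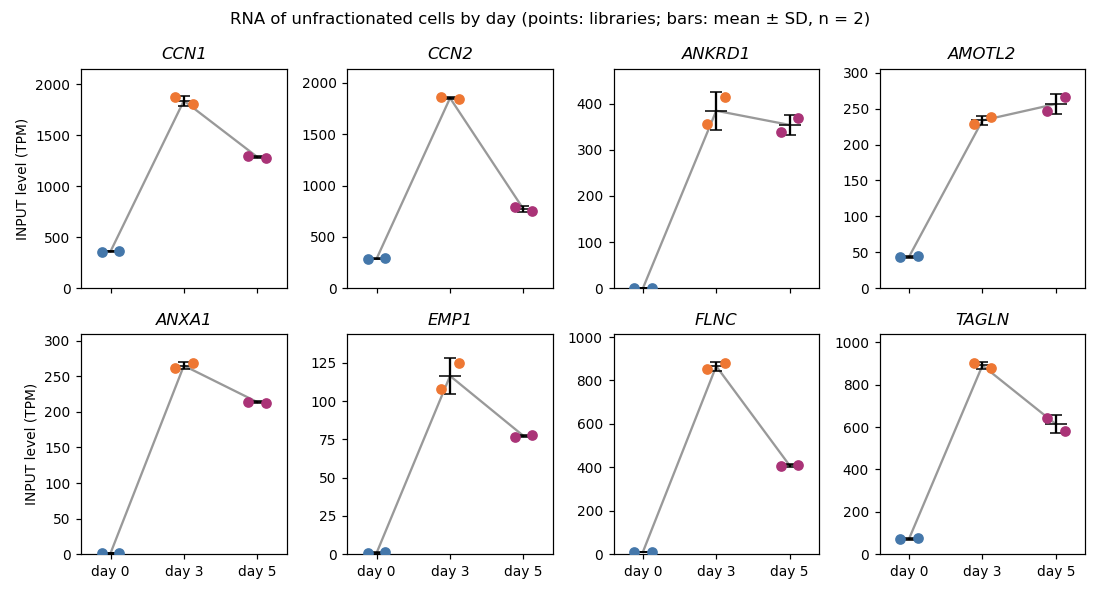
TPM of the 8 genes in unfractionated cells on days 0, 3 and 5, each on its own linear axis from 0. Points are the 2 libraries of a day and bars the mean ± SD. 7 of the 8 panels peak on day 3, while AMOTL2 is highest on day 5 at 247 and 266 TPM.

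Lists of genes of the same pathways outside the 8 were tested between days. These lists, like the 8 genes, were chosen with earlier results of these data known, so their counts describe the lists and are no independent evidence of a direction. Differences are of mean log2(TPM + 1), and a gene was called where its limma p, adjusted over all genes tested, was under 0.05 and its log2 difference 1 or more in size. The list of 22 other YAP and TEAD targets had 17 genes higher and 0 lower on day 3 against day 0, where 4.06% of all genes were called higher and 3.38% lower. Its median log2 difference was 1.51 against -0.01 over all genes. MYOF, a membrane-repair ferlin, had 20.8 ± 1.75 TPM on day 3 against 0.319 ± 0.0412 TPM on day 0 (SD, n = 2 each; log2 difference 4.05 ± 0.15 SE, limma adjusted p = 8.2e-14), and the growth factor TGFB2 11.8 ± 0.719 TPM against 0.454 ± 0.0292 TPM (3.13 ± 0.28). From day 3 to day 5 this list had 1 gene called higher and 1 lower. The higher one was IGFBP3, which binds insulin-like growth factors, at 641 ± 6.57 TPM on day 5 against 38.5 ± 1.29 TPM on day 3. Of all genes 2.49% were called higher and 2.32% lower. On day 5 against day 0, 17 of the 22 were higher and 0 lower, beside 6.15% and 6.67% of all genes, among them IGFBP3 (5.71) and MYOF (4.57).

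In the Hippo core, 22 genes were tested. On day 3 against day 0, 6 were higher and 1 lower, with a median log2 difference of 0.57. The YAP-binding AMOTL1 had 46.6 ± 3.89 TPM on day 3 against 14.1 ± 0.660 TPM on day 0 (1.66 ± 0.20). TEAD1 had 47.8 ± 3.52 against 15.9 ± 0.383 TPM (1.53 ± 0.18), and the phosphatase PTPN14 had 50.2 ± 5.81 against 17.8 ± 0.572 TPM (1.44 ± 0.17). The protocadherin FAT4 fell, to 1.56 ± 0.0315 TPM on day 3 against 7.62 ± 0.335 TPM on day 0 (-1.75 ± 0.18). From day 3 to day 5 AMOT rose to 65.3 ± 2.10 TPM on day 5, against 7.04 ± 0.0323 TPM on day 3 (3.04 ± 0.21). TEAD4 fell to 22.3 ± 1.82 TPM on day 5, against 47.6 ± 3.68 TPM on day 3 (-1.06 ± 0.12). On day 5 against day 0, 6 were higher, led by AMOT (4.43), AMOTL1 (1.67) and TEAD1 (1.67), and FAT4 was lower (-1.94). YAP1 itself stood at 33.3 TPM on day 0, 52.9 TPM on day 3 and 78.9 TPM on day 5.

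The 24 SRF, MRTF and actin genes had 15 higher and 0 lower on day 3 against day 0, with a median log2 difference of 1.24. The smooth muscle actin ACTG2 had 23.6 ± 2.02 TPM on day 3 against 0.768 ± 0.0137 TPM on day 0 (3.80 ± 0.30). Caldesmon, CALD1, had 125 ± 6.40 against 14.5 ± 0.403 TPM (3.02 ± 0.12), and the myosin light chain MYL9 315 ± 11.3 against 52.0 ± 0.844 TPM (2.58 ± 0.41). From day 3 to day 5 none of these 24 was called higher and 3 fell, the focal adhesion protein VCL (-1.17 ± 0.20), ACTG2 (-1.16 ± 0.30) and the LIM protein FHL1 (-1.14 ± 0.19). On day 5 against day 0, 13 were higher, led by TAGLN2 (2.89), ACTG2 (2.63) and CALD1 (2.46), and FHL1 was lower (-1.43). Of the smooth muscle and fibroblast markers given above, CNN1, which is also in this list, was likewise highest on day 3, while ACTA2, also in both, had 3.12 to 3.80 TPM on day 3 and 3.62 to 3.73 TPM on day 5.

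Of 13 relatives 10 were tested, and 2 were higher and 0 lower on day 3 against day 0. ANXA2 had 144 ± 8.98 TPM on day 3 against 13.9 ± 0.977 TPM on day 0 (3.28 ± 0.16), and ANXA5 had 135 ± 8.88 against 58.8 ± 0.366 TPM (1.18 ± 0.15). From day 3 to day 5 PMP22 rose to 20.8 ± 0.456 TPM on day 5, against 1.57 ± 0.0337 TPM on day 3 (3.08 ± 0.36), and EMP2 to 14.2 ± 0.526 TPM, against 4.60 ± 0.0193 TPM on day 3 (1.44 ± 0.28). On day 5 against day 0, 4 were higher, led by PMP22 (3.79), ANXA2 (3.36) and EMP2 (1.06). CCN3 stayed at or below a mean of 1.89 TPM on every day, and CCN4, CCN5 and CCN6 were below the level tested.

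**Figure D2:**
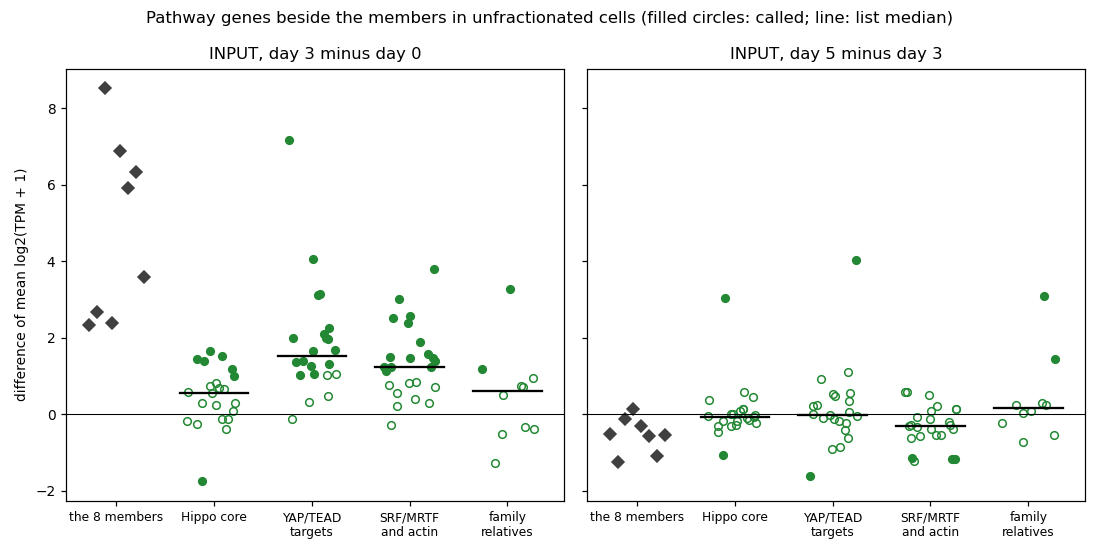
Differences of mean log2(TPM + 1) in unfractionated cells for day 3 minus day 0 (left) and day 5 minus day 3 (right). Diamonds are the 8 members, which were not tested here, circles are single genes of the 4 lists, filled where called, and lines are list medians, 1.51 on the left and -0.01 on the right for the YAP and TEAD targets.

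Position among extracts was tested within each day against CE by the same rule. TPM values share out a fixed total, and the extracts differ in what fills it. Mitochondrial RNA took 59.6% and 61.4% of ME on day 0, 47.7% and 54.7% on day 3 and 46.6% and 48.1% on day 5, and 21.4% to 28.9% of SNE, against 1.40% to 1.86% of CE. The median protein-coding gene stood at -0.48, -0.16 and -0.14 in ME against CE on days 0, 3 and 5, and at 0.56, 0.69 and 0.74 in SNE against CE, and a member's difference is to be read beside these shifts.

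FLNC, the actin cross-linker, was called higher in soluble nuclear than in cytoplasmic extract on days 3 and 5 and not on day 0. On day 0 it had 10.5 and 9.99 TPM in SNE against 11.4 and 12.7 TPM in CE (-0.21 ± 0.10, adjusted p = 0.0997), with both SNE libraries slightly below those of CE. On day 3 it had 1921 and 1877 TPM in SNE against 496 and 541 TPM in CE, and on day 5 788 and 692 TPM in SNE against 254 and 288 TPM in CE. The groups did not overlap on either of these days, when 30.5% and 35.9% of all genes were called higher in SNE. FLNC was called higher in SNE with log2 differences of 1.87 ± 0.10 (SE, limma adjusted p = 5.92e-12) on day 3 and 1.44 ± 0.10 (adjusted p = 1.32e-10) on day 5. With every library brought to a common median these became 0.96 and 0.42, still higher in SNE but under the size called. The change in position was itself called, at 2.08 ± 0.15 for day 3 minus day 0 (adjusted p = 1.48e-08; 2.44% of all genes called higher) and 1.66 ± 0.15 for day 5 minus day 0 (adjusted p = 1.8e-07; 5.63%). Over the alternatives tried these ranged from 1.87 to 2.22 and from 1.33 to 1.75. These day 0 contrasts were added after the levels had been seen, while the day 5 minus day 3 contrast planned at the start was not called (-0.43 ± 0.15, adjusted p = 0.12). No member was called in that contrast for SNE, beside 2.12% of all genes higher and 0.376% lower, nor for ME, beside 0.0202% and 0.0364%.

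In the membrane extract FLNC followed a like course. It had 11.6 and 11.0 TPM in ME against 11.4 and 12.7 TPM in CE on day 0, 893 and 859 TPM in ME against 496 and 541 TPM in CE on day 3, and 587 and 605 TPM in ME against 254 and 288 TPM in CE on day 5. It was called higher in ME on day 5 (1.14 ± 0.10, adjusted p = 1.19e-07), when 1.69% of all genes were, and not on day 3 (0.76 ± 0.10) or day 0 (-0.08 ± 0.10). With mitochondrial and small structured RNA left out of the totals the values were 1.18, 1.78 and 2.05 on days 0, 3 and 5, so the day 0 value changed sign. The change from day 0 to day 5 was called at 1.22 ± 0.15 (adjusted p = 1.97e-05; 3.24% of all genes higher) but fell under the size called with these totals (0.87) and with a common median (0.90). From day 0 to day 3 no member's ME position was called to change (FLNC 0.84 ± 0.15, AMOTL2 0.85 ± 0.14), beside 3.44% of all genes higher and 0.190% lower.

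TAGLN, the SRF target, lay below its CE level in ME and in SNE on each day. In SNE it had 61.5 and 61.1 TPM against 95.6 and 95.6 TPM in CE on day 0, 364 and 367 TPM against 1464 and 1438 TPM in CE on day 3, and 283 and 254 TPM against 906 and 925 TPM in CE on day 5. All SNE libraries lay below those of CE of the same day. TAGLN was called lower in SNE on day 3 (-1.99 ± 0.48, adjusted p = 0.00157; 6.64% of all genes lower) and day 5 (-1.77 ± 0.48, adjusted p = 0.00357; 8.17%), and not on day 0 (-0.63 ± 0.48, adjusted p = 0.296). These 2 calls held in every alternative tried. The change from day 0 to day 3 (-1.35 ± 0.68, adjusted p = 0.353) was not called. It was called in a fit on the 24 INPUT, CE, ME and SNE libraries alone, which leaves the shallow CBNE and PE libraries out of the shared spread (adjusted p = 1.98e-05; range over all alternatives 1.98e-05 to 0.605).

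In ME, TAGLN had 24.4 and 26.3 TPM against 95.6 and 95.6 TPM in CE on day 0, 584 and 436 TPM against 1464 and 1438 TPM in CE on day 3, and 429 and 362 TPM against 906 and 925 TPM in CE on day 5. It was called lower on day 0 (-1.88 ± 0.48, adjusted p = 0.00491; 15.2% of all genes lower) and day 3 (-1.52 ± 0.48, adjusted p = 0.0328; 6.82%). On day 5 it was not called (-1.21 ± 0.48, adjusted p = 0.0909), though the fit on 24 libraries did call it. The day 3 call was lost without any 1 of its 4 libraries (adjusted p from 0.0634 to 0.238, with 5.79e-08 to 0.545 over all alternatives). With mitochondrial and small structured RNA left out of the totals the differences were -0.58, -0.50 and -0.30 and none was called.

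The contrast between FLNC and TAGLN does not depend on how a library is scaled, since both are read in the same library. The ratio of FLNC TPM to TAGLN TPM was 0.171 and 0.164 in SNE against 0.119 and 0.133 in CE on day 0, 5.28 and 5.11 in SNE against 0.339 and 0.376 in CE on day 3, and 2.79 and 2.73 in SNE against 0.281 and 0.312 in CE on day 5. In ME it was 0.474 and 0.420 on day 0, above both SNE and CE, and 1.53 and 1.97 on day 3 and 1.37 and 1.67 on day 5, between them. With 2 libraries against 2 an exact permutation test cannot reach 0.05, and these ratios are given without one.

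CCN1 and CCN2 were called higher in SNE than in CE on day 0 and not on days 3 or 5. On day 0 CCN1 had 898 and 903 TPM in SNE against 347 and 365 TPM in CE, and CCN2 had 812 and 774 TPM in SNE against 292 and 306 TPM in CE. Both were called (1.34 ± 0.16, adjusted p = 3.57e-07, and 1.40 ± 0.19, adjusted p = 1.65e-06), as were 30.0% of all genes in that direction, and with a common median they were higher by 0.64 and 0.71, under the size called. On day 3 CCN1 had 2347 and 2287 TPM in SNE against 1670 and 1737 TPM in CE, and CCN2 2338 and 2282 TPM against 1671 and 1799 TPM in CE. On day 5 CCN1 had 1658 and 1559 TPM in SNE against 1043 and 1143 TPM in CE, and CCN2 937 and 846 TPM against 655 and 716 TPM in CE. The SNE libraries lay above those of CE each time, but the differences, 0.44 and 0.41 on day 3 and 0.56 and 0.38 on day 5 for CCN1 and CCN2, were not called and turned negative with a common median.

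The change in the nuclear position of CCN2 from day 0 to day 5 was called at -1.03 ± 0.26 (adjusted p = 0.0112; 1.53% of all genes lower). Leaving out CE replicate 1 or SNE replicate 1 of day 0, or CE replicate 2 or SNE replicate 2 of day 5, took it to between -0.95 and -0.99, under the size called. The same change was -0.78 ± 0.22 for CCN1 and -0.88 ± 0.24 for EMP1, with adjusted p of 0.0231 and 0.0194 and sizes under 1. From day 0 to day 3 it was -0.89 ± 0.22 for CCN1, -0.99 ± 0.26 for CCN2 and -0.997 ± 0.24 for EMP1 (adjusted p = 0.0166, 0.0242 and 0.0142), where none was called, beside 1.32% of all genes lower. With a common median all 3 genes were called lower in both changes, from -1.10 to -1.35. In ME against CE, CCN1 and CCN2 were not called on any day (0.05 and 0.21 on day 0, 0.43 and 0.51 on day 3, 0.68 and 0.81 on day 5). With mitochondrial and small structured RNA left out of the totals both were called higher on all 3 days, at 1.38 to 1.73.

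ANKRD1 had 549.5 and 583 TPM in SNE against 381 and 449 TPM in CE on day 3, which was not called (0.45 ± 0.45). On day 5 it had 740.2 and 757 TPM in SNE against 310.3 and 317 TPM in CE and was called higher (1.25 ± 0.45, adjusted p = 0.0218; 35.9% of all genes higher). That call was lost without any 1 of its 4 libraries (adjusted p from 0.068 to 0.0784, with 5.52e-08 to 0.627 over all alternatives), and with a common median the difference was 0.23. The SE of 0.45 is shared over all 36 total RNA libraries, among them the shallow PE libraries of day 0, at 5.54 and 0 TPM. It does not measure the spread of the SNE and CE libraries of day 5 alone. SNE was the extract in which ANKRD1 was higher on day 5 than on day 3 without overlap, while in unfractionated cells days 3 and 5 overlapped. In ME it had 298 and 259 TPM on day 3 and 270.5 and 291 TPM on day 5, with differences from CE of -0.57 ± 0.45 and -0.16 ± 0.45 that were not called.

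AMOTL2, ANXA1 and EMP1 were called in neither extract on any day in the main fit. Over the alternatives tried, AMOTL2 reached 1.28 and 1.20 in ME and 1.24 and 1.05 in SNE on days 3 and 5. EMP1 reached 1.31 in ME on day 5 and 1.22 in SNE on day 0. ANXA1 reached -1.24 in ME on day 0, where the main fit gave -0.91 ± 0.23 (limma adjusted p = 0.00471), under the size called. AMOTL2 lay above CE in SNE on each day, with 312 and 303 TPM in SNE against 169 and 188 TPM in CE on day 3 and 378 and 363 TPM against 214 and 239 TPM in CE on day 5. Its differences of 0.50, 0.78 and 0.71 on days 0, 3 and 5 were close to those of the median protein-coding gene and turned negative with a common median (-0.20, -0.13 and -0.32). ANXA1 lay below CE in ME, with 164 and 142 TPM in ME against 265 and 289 TPM in CE on day 3 and 135 and 121 TPM against 203 and 209.8 TPM in CE on day 5 (-0.86 ± 0.23 and -0.68 ± 0.23). With mitochondrial and small structured RNA left out of the totals these 2 ANXA1 values became 0.16 and 0.23. EMP1 had 119 and 118 TPM in SNE against 105 and 147 TPM in CE on day 3, and 76.2 and 78.6 TPM against 70.5 and 78.7 TPM in CE on day 5, where the groups overlapped. On day 0, at a low level, EMP1 had 2.93 and 2.35 TPM in SNE against 0.833 and 0.974 TPM in CE. The difference was 0.93 ± 0.17 (limma adjusted p = 0.000109), under the size called.

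**Figure D3:**
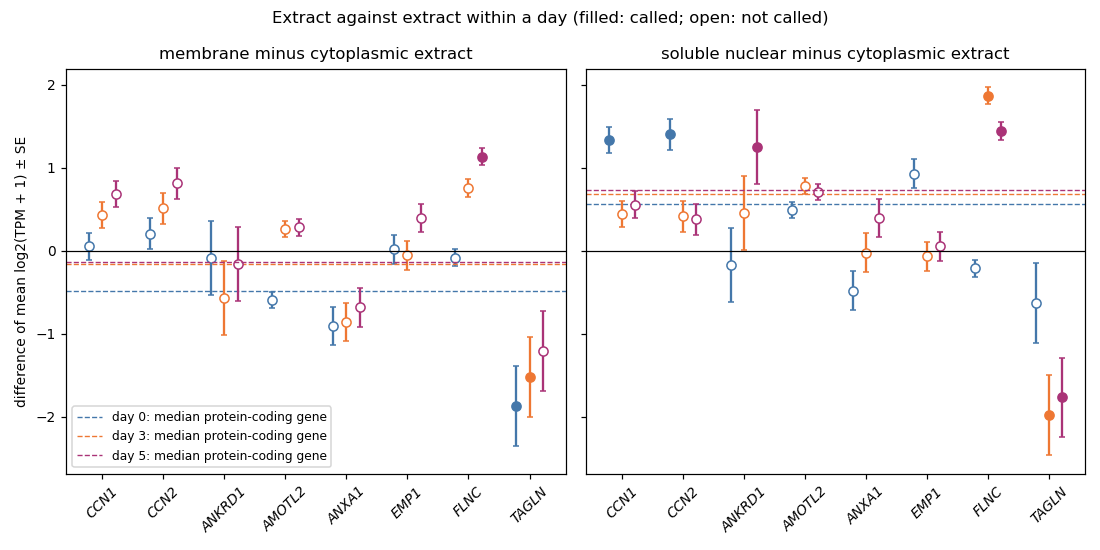
Differences of mean log2(TPM + 1) ± SE in ME minus CE (left) and SNE minus CE (right) for each gene on days 0, 3 and 5, filled where called. Dashed lines mark the median protein-coding gene of each day, which is between 0.56 and 0.74 on the right, and FLNC on days 3 and 5 and TAGLN on all 3 days lie on opposite sides of these lines.

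Over all 8 genes the counts called were 0 higher and 1 lower, 0 and 1, and 1 and 0 in ME against CE on days 0, 3 and 5. They were 2 and 0, 1 and 1, and 2 and 1 in SNE against CE. Among all genes tested 1.41%, 1.00% and 1.69% were called higher and 15.2%, 6.82% and 6.40% lower in ME, and 30.0%, 30.5% and 35.9% higher and 8.66%, 6.64% and 8.17% lower in SNE. The members' median log2 difference was 0.16, 0.43 and 0.47 in SNE on days 0, 3 and 5, beside 0.53, 0.54 and 0.65 over all genes, and -0.09, 0.10 and 0.34 in ME beside -0.11, 0.00 and 0.00. The members called higher in SNE, at most 2 of 8 on a day, were no larger a share than among all genes, and nothing is read from those counts for the 8 as a group. On day 5, ME replicate 2 and both SNE libraries carry library numbers that do not follow on from those of CE and ME replicate 1. The labels do not call this a batch, and for SNE on day 5 it cannot be told apart from the extract.

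The polyA table, made separately, gives a second view of day 0. CCN1 had 776 and 787 TPM in nucleus against 159 and 171 TPM in cytoplasm, and CCN2 had 808 and 786 TPM against 173 and 184 TPM in cytoplasm. FLNC had 12.8 and 14.8 TPM in nucleus against 2.79 and 3.29 TPM in cytoplasm. None of these overlapped. All 3 were called higher in nucleus, at 2.24 ± 0.05 (adjusted p = 3.34e-06), 2.15 ± 0.04 (adjusted p = 3.34e-06) and 1.87 ± 0.13 (adjusted p = 6.53e-05). They were 3 of the 6 tested, beside 30.0% of all genes called higher and 6.22% lower and a median protein-coding gene at 0.34. They kept the call with a common median, at 1.83, 1.74 and 1.47. FLNC thus lay higher in nucleus in day 0 polyA RNA, while in day 0 total RNA its SNE and CE levels differed by -0.21 ± 0.10. These are unlike measures, since SNE is only the soluble part of the nucleus and chromatin-bound RNA went to CBNE. The 2 tables also fit different gene lengths and were not tested against each other.

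The other members stood nearer to even in polyA RNA. AMOTL2 had 101 and 109 TPM in nucleus against 60.9 and 64.7 TPM in cytoplasm (0.73 ± 0.06, adjusted p = 0.000122, under the size called). TAGLN had 49.5 and 48.4 TPM in nucleus against 64.8 and 62.1 TPM in cytoplasm (-0.37 ± 0.05, adjusted p = 0.00127, also under it), the only abundant member on the cytoplasmic side. ANXA1 had 0.625 and 1.05 TPM in nucleus against 1.11 and 1.01 TPM in cytoplasm, with overlap. EMP1, at most 0.637 TPM, and ANKRD1, at most 0.694 TPM, were below the level tested.

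CBNE and PE are described without a test because of their depth. Nuclear-encoded protein-coding genes made up 33.1% to 53.5% of CBNE and 32.7% to 59.2% of PE, against 83.3% to 85.2% of CE. The shift of the median protein-coding gene is not given for these 2 extracts, so their levels against CE lack that reference. CCN2 was the member highest in CBNE relative to CE on days 0 and 3, with 1593 and 1107 TPM in CBNE against 292 and 306 TPM in CE on day 0 and 4912 and 4385 TPM against 1671 and 1799 TPM in CE on day 3. On day 3 AMOTL2 lay close to CCN2, with a mean in CBNE 2.60 times that in CE against 2.68 times for CCN2. On day 5 the CBNE libraries held 483 and 907 TPM of CCN2 against 655 and 716 TPM in CE, and they spanned the CE values. Taken on exon length, 1 read on CCN2, which has a single annotated transcript, was worth 5.91 to 26.4 TPM in CBNE, and less if taken on gene span. CCN1 did not share this, with 548 and 356 TPM in CBNE against 347 and 365 TPM in CE on day 0, 1261 and 1100 TPM against 1670 and 1737 TPM in CE on day 3, and 464 and 501 TPM against 1043 and 1143 TPM in CE on day 5.

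The ratio of CCN2 TPM to CCN1 TPM within a library puts this plainly. It was 2.91 and 3.11 in CBNE against 0.841 and 0.837 in CE on day 0, 3.90 and 3.99 in CBNE against 1.00 and 1.04 in CE on day 3, and 1.04 and 1.81 in CBNE against 0.628 and 0.627 in CE on day 5. PE had 1.81 and 1.94, 1.71 and 1.65, and 0.819 and 0.599 on these days. In SNE the ratio was 0.905 and 0.856, 0.996 and 0.998, and 0.565 and 0.543, near that of CE on each day.

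Relative to CE, ANXA1 and AMOTL2 moved in opposite directions in CBNE between day 3 and day 5. ANXA1 had 166 and 176 TPM in CBNE against 265 and 289 TPM in CE on day 3, and 620.5 and 584 TPM in CBNE against 203 and 209.8 TPM in CE on day 5. On that day a read on a length of 1 kb was worth 51.8 to 61.8 TPM in CBNE. AMOTL2 had 456 and 474 TPM in CBNE against 169 and 188 TPM in CE on day 3, but 104 and 114 TPM in CBNE against 214 and 239 TPM in CE on day 5. EMP1 and ANKRD1 were low there: EMP1 had at most 4.46 TPM and ANKRD1 at most 47.2 TPM in any CBNE library, while their CE levels on days 3 and 5 were at least 70.5 and 310.3 TPM.

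In PE, FLNC stood as high as in SNE, with 2072 and 1919 TPM in PE against 496 and 541 TPM in CE on day 3 and 718 and 805 TPM in PE against 254 and 288 TPM in CE on day 5. TAGLN had 480.0 and 535 TPM in PE against 1464 and 1438 TPM in CE on day 3, and 343 and 380.0 TPM against 906 and 925 TPM in CE on day 5. On day 3 the FLNC to TAGLN ratio was 4.32 and 3.59 in PE and 4.31 and 4.34 in CBNE, against 0.339 and 0.376 in CE. On day 0 the PE libraries were too shallow for this pair, with 41.9 and 5.64 TPM of TAGLN in the 2 libraries.

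**Figure D4:**
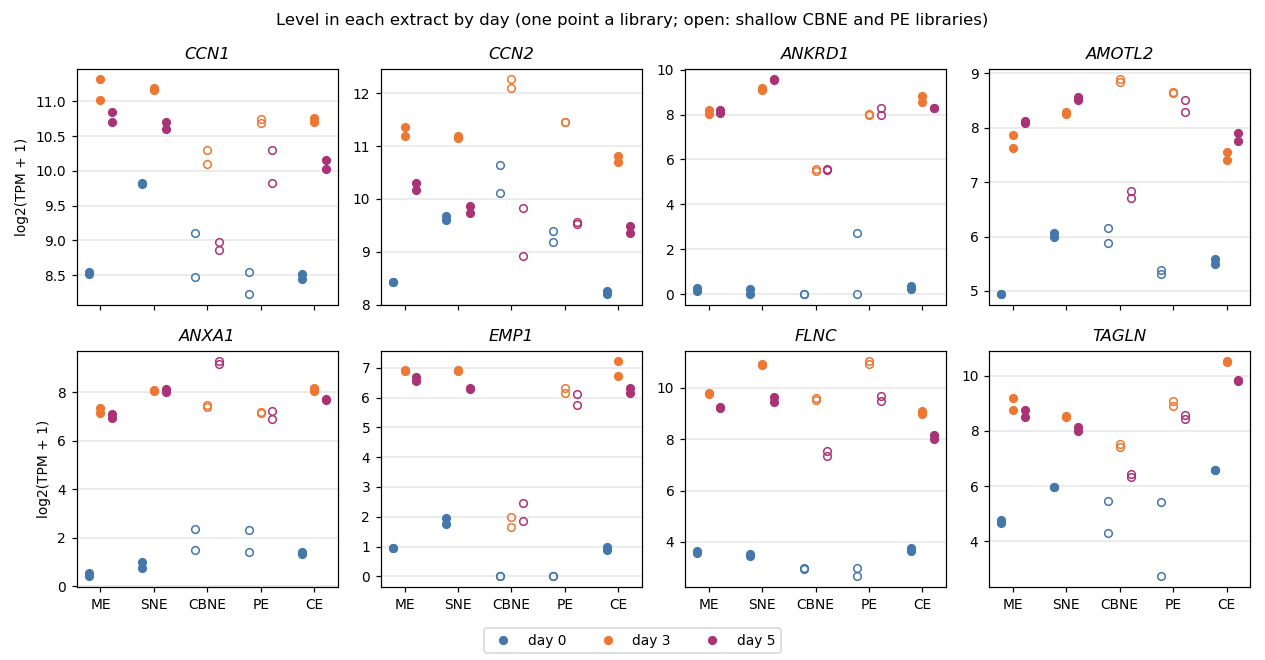
Level of each gene as log2(TPM + 1) in ME, SNE, CBNE, PE and CE on days 0, 3 and 5, 1 point a library, with open points for the shallow CBNE and PE libraries. TAGLN is highest in CE on every day, FLNC is highest in SNE and PE on days 3 and 5, and EMP1 nearly drops out of CBNE.

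**Figure D5:**
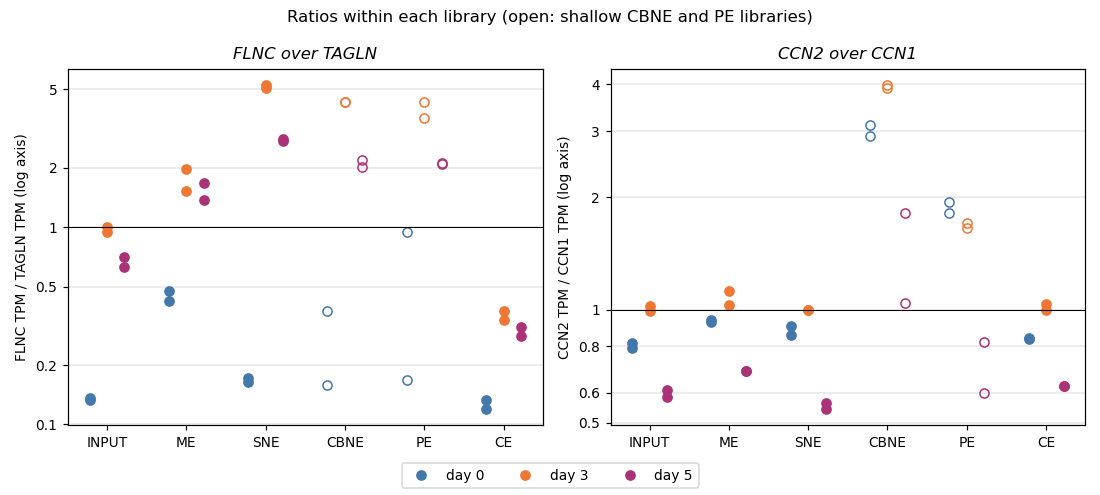
Ratio of FLNC to TAGLN (left) and of CCN2 to CCN1 (right), TPM over TPM within each library on log axes, by extract and day. On the left SNE reaches 5.28 on day 3 against 0.376 at most in CE, and on the right CBNE reaches 3.99 while SNE and CE stay close to each other.

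Across the 12 group means of INPUT, CE, ME and SNE on log2(TPM + 1), which share libraries' scaling and the step from day 0 to day 3, Pearson's r between members ran from 0.713 for CCN2 with TAGLN to 0.996 for ANKRD1 with ANXA1. Among 10835 protein-coding genes searched, the 3 most like TAGLN were the sarcomeric actins ACTC1 (r = 0.993) and ACTA1 (0.983) and the myosin light chain MYL9 (0.978). Those most like FLNC were GLIPR1 (0.990), HRK (0.986) and MFAP5 (0.985), and GLIPR1 (0.988) was also first for EMP1, before ESAM (0.987) and NIPAL4 (0.986). ANKRD1 had PRSS23 (0.996), ANXA1 (0.996) and TWIST1 (0.992), ANXA1 had ANKRD1 (0.996), PRSS23 (0.990) and PPP1R15A (0.990), and AMOTL2 had FSTL1 (0.996), KLF5 (0.991) and CDKN2B (0.990). CCN1 and CCN2 named each other (0.954), CCN1 after WNK4 (0.963) and OGFRL1 (0.961), and CCN2 between ULBP1 (0.977) and ADM (0.943).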

How the data were processed

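Total RNA of 36 libraries and polyA RNA of 4 were analysed from 2 tables of TPM as deposited by the authors, and the unit was inferred from column sums between 989513 and 1000000. The submitters' processing notes name HISAT2 2.0.5, featureCounts 1.6.2, Salmon 1.3.0, GATK and the build hg38, without saying which made which table. A gene was tested if 2 or more libraries had it at 1 TPM or above, which left 24735 total RNA and 16667 polyA genes. The scale was log2(TPM + 1), which understates changes of low genes. limma 3.58.1 (R 4.3.3) was fitted with a mean per group, 18 residual degrees of freedom in total and 2 in polyA RNA, and a trended, robust variance prior. p-values were adjusted by the Benjamini-Hochberg method over all genes tested. The fit was tested on simulated data. All 57939 total RNA identifiers and 58216 of 58336 polyA identifiers matched GENCODE 29. Depth was estimated from the TPM of 1 read per kb. In polyA RNA 99.5% to 99.6% of low values came out as whole reads on exon length (within 0.05), which gave 14449200 to 17270400 reads. In total RNA 42.9% to 51.3% did on exon length, so no read totals are given. The limma test on TPM was kept as the main one for both tables, and no count model was run on the recovered polyA reads. The members and lists were chosen with earlier results of these data known. In each list and comparison of days, the 3 genes with the largest called change in each direction were named, and for each member the 3 most like genes with a group mean of at least 10 TPM. YAP1 and CCN3 are named beside that rule. 1 gene that the rule would name is not reported here. Alternatives changed the pseudocount, filter, scaling, replicate block, variance prior or libraries used. A fit on 24 libraries and the contrasts with day 0 were added after seeing the data.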

Additional observations from a re-analysis of the deposited data

Results flagged for a closer look

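In 4 cases the difference between an extract and CE itself differed between days by the interaction test of the limma fit. FLNC in SNE minus CE was higher by 2.08 ± 0.15 (log2, SE; adjusted p = 1.48e-08) on day 3 than on day 0 and by 1.66 ± 0.15 (adjusted p = 1.8e-07) on day 5 than on day 0. FLNC in ME minus CE was higher by 1.22 ± 0.15 (adjusted p = 1.97e-05) on day 5 than on day 0. CCN2 in SNE minus CE was lower on day 5 than on day 0, at -1.03 ± 0.26 (adjusted p = 0.0112). All 4 rest on 2 libraries a group, and the 4 contrasts with day 0 were chosen after the levels had been seen.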

How the results depend on the processing

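Among counts of genes or members called and the other main values, 408 kept their side of the limit under the alternatives and 46 moved; of values of single members, 1178 kept, 35 gained and 23 lost the call, 18 moved and 30 changed sign. The cause of these changes was not tested. Scaling mattered most. With totals that leave out mitochondrial and small structured RNA, ME against CE gave 6327, 4333 and 4414 genes called on days 0, 3 and 5, against 4098, 1934 and 2002, and 3, 4 and 5 members in place of 1 each, and the ME change from day 0 to day 5 gave 0 members in place of 1. The sign turned in ME for ANKRD1 (0.17, 0.45 and 0.76 on days 0, 3 and 5), AMOTL2 (0.71, day 0), FLNC (1.18, day 0), ANXA1 (0.16 and 0.23, days 3 and 5) and EMP1 (0.96, day 3), and in SNE for FLNC (0.11, day 0), ANXA1 (0.44, day 3) and EMP1 (0.39, day 3). With a common median, SNE against CE gave 1 member called on day 3 and 1 on day 5, in place of 2 and 3, its changes from day 0 gave 4 and 4 in place of 1 and 2, and the ME changes gave 507 and 396 genes in place of 898 and 850 and 0 members on day 5 in place of 1. Signs then turned in ME for ANKRD1 (0.40 and 0.011, days 0 and 5), FLNC (0.41, day 0) and EMP1 (0.16, day 3), and in SNE for AMOTL2 (-0.20, -0.13 and -0.32 on the 3 days), CCN1 (-0.47 on days 3 and 5), CCN2 (-0.50 and -0.65, days 3 and 5), ANKRD1 (-0.46, day 3), ANXA1 (-0.63, day 5) and EMP1 (-0.97, day 5). A pseudocount of 5 gave 904, 557 and 1662 genes called in INPUT (day 3 minus day 0, day 5 minus day 3, day 5 minus day 0) in place of 1840, 1189 and 3172, 5 pathway genes in place of 9 for day 5 minus day 3, 1081 genes in place of 1771 for the SNE change from day 0 to day 5, 3394 in place of 6042 in polyA RNA and 2 members in ME on day 5. A pseudocount of 0.5 gave 2 members in ME on day 0 and 2 for the SNE change from day 0 to day 3, in place of 1 each. The fit on 24 libraries, added after seeing the data, gave 3048 genes and 2 members in ME on day 5, 44 and 1154 genes for the ME and SNE changes from day 3 to day 5 in place of 14 and 618, 1781 and 1754 genes for those from day 0 to day 3 in place of 898 and 930, and 1777 genes for the ME change from day 0 to day 5. It called 2 and 4 members for the SNE changes from day 0 to days 3 and 5. Leaving out 1 library at a time gave 1238 to 2072 genes and 0 to 0 members in ME on day 3, 1 to 2 members for each SNE change from day 0, and, for EMP1, -0.038 to 0.069 in ME on day 0, -0.30 to 0.19 in ME on day 3, -0.31 to 0.18 in SNE on day 3 and -0.024 to 0.13 in SNE on day 5, with -0.085 to 0.041 for ANXA1 in SNE on day 3. Replicate numbers were not taken to pair the samples: over 45 pairs of groups of a day the deviations of same-numbered libraries correlated at -0.179 to 0.241 (median 0.0128), with 7 over 0.1. Of these 7, 5 were among the 15 pairs of day 5, and whether same-numbered extracts came from the same cells is not stated. With the replicate block the SNE comparison on day 5 called 10905 genes in place of 10904, and with the block within day ME on day 3 called 0 members in place of 1, TAGLN at -1.52. Depth limits CBNE and PE throughout, and the day 0 levels of ANKRD1, ANXA1 and EMP1.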

Other observations

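EMP1 and ANXA1, both tied to membranes, parted most in CBNE on day 5, where the ratio of ANXA1 TPM to EMP1 TPM was 233 and 131, against 2.89 and 2.67 in CE. In these shallow libraries a read on a length of 1 kb was worth 51.8 to 61.8 TPM. EMP1, at 2.66 and 4.46 TPM there, may thus rest on very few reads, and the ratio is given without a test. In SNE on day 5 the ratio of ANKRD1 TPM to TAGLN TPM was 2.62 and 2.99, against 0.342 and 0.342 in CE.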
